A study of Mus musculus with 6 samples.

Results

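The semaphorins, plexins and neuropilins are the ligands, receptors and co-receptors of 1 axon guidance system, and 30 of the 17022 gene names in the expression table belong to them. They were taken by name alone, whatever their level: every name made of Sema, a digit and a letter, every name that begins with Plxn, and Nrp1 and Nrp2. They comprise 6 secreted semaphorins of class 3, 12 transmembrane semaphorins of classes 4, 5 and 6, the GPI-anchored Sema7a, 9 plexins and 2 neuropilins.

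Expression had been measured by poly-A RNA-seq in neurons of mouse dorsal root ganglia, where the cell bodies of the sensory neurons of trunk and limbs lie. The neurons had been cut out with a laser from frozen ganglia of lumbar levels 3, 4 and 5 on the operated side of C57Bl/6 male mice, labelled adult with an age of 4 to 6 weeks. In the 3 crush libraries the sciatic nerve had been crushed for 10 seconds 7 days earlier, and in the 3 sham libraries the nerve had been exposed for 10 seconds without a crush. No genetic change or drug is named in either group. The header of the deposited table calls the 3 libraries of a group biological replicates, but the number of mice behind each library was not given in the sources used here. If a library was not a separate mouse, the p-values cover the spread between libraries alone, which may be technical.

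As background, semaphorins are secreted or membrane-bound proteins that steer growing axons, most often by repulsion, and that also act on immune cells and blood vessels. Most class 3 semaphorins bind a neuropilin, which recruits a plexin of class A as the signalling partner, while most transmembrane semaphorins and Sema7a bind plexins directly. Plexins carry a cytoplasmic domain that inactivates small GTPases of the Rap family and, through further partners, alters the cytoskeleton of the growth cone. Adult sensory neurons make both ligands and receptors of this system, and their injured axons regrow in the peripheral nerve.

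The values were FPKM, that is, fragments scaled by transcript length and by the number of mapped fragments, summed here over the isoforms of a gene. FPKM is a level per length, so levels of different genes may be set side by side. The depth of the libraries was unknown, since FPKM keeps no read count. In a bulk library, a change in RNA per neuron and a change in the number of cells of a type cannot be told apart. Changes are given as log2 change, crush minus sham, on the log2(FPKM + 1) scale, which understates changes of low genes. A change was called when the adjusted p of limma, a linear model with moderated variance fitted to all genes, was under 0.05.

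Of the 30 members, 28 had a mean of at least 1 FPKM and were tested, and 5 of them (17.9%) were called. The same test called 3.78% of all 12289 genes tested. The members were chosen with earlier results of these data known, so these shares are set side by side as a description only. Sema6a, Sema4f and Plxna4 were higher after crush (2.38% of all genes were called in that direction), and Sema7a and Sema3f were lower (1.39% of all genes). The other 23 members tested did not pass, and Sema3d and Sema5b were below the level needed for a test. The 3 crush values lay all above the 3 sham values in 9 of the 28 members (12.2% of all genes) and all below them in 3 (14.1% of all genes). The median log2 change was 0.07 over the members and -0.02 over all genes, and the median absolute log2 change was 0.19 and 0.11. The called members were 4 of the 17 semaphorins tested, 1 of the 9 plexins and 0 of the 2 neuropilins.

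Some facts of the libraries touch every member. Of the 14 sensory neuron markers tested, 0 rose and 2 fell with limma's adjusted p, the neurofilament genes Nefm and Nefh. At an unadjusted p under 0.05 there were 5 of the 14, all of them lower in crush. The summed level of the sensory neuron markers was 7713 to 9729 FPKM in sham and 7463 to 8476 FPKM in crush. The libraries were not purely neuronal. Markers of satellite glia, the cells that wrap these neurons, summed to 2387 to 3442 FPKM in sham and 2345 to 2630 FPKM in crush, and 0 of 10 were called by limma (2 at an unadjusted p under 0.05). Macrophage markers moved with the groups: 8 of 9 tested rose, and their sum was 63.3 to 75.5 FPKM in sham and 131.1 to 150.2 FPKM in crush. The summed fibroblast markers were also higher in crush (189.5 to 200.8 FPKM against 120.9 to 164.8 FPKM), as were those of myelinating Schwann cells (866.5 to 898.4 FPKM against 727.3 to 828.0 FPKM), with 0 of 7 and 0 of 9 called by limma but 6 of each at an unadjusted p under 0.05. Endothelial and pericyte markers summed to 73.8 to 80.2 FPKM in sham and 68.0 to 74.2 FPKM in crush, with 0 of 8 called by limma and 0 at an unadjusted p under 0.05. None of the markers found in the table was at 0 in all 6 libraries, and the part of these cells in the changes below was not tested.

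The library sham 2 stood apart from the others. Its members were lower than the mean of the other 2 sham libraries in 19 of 28 cases, with a median difference of -0.20 on the log2 scale. Across all genes the median of that difference was 0.26 in the shortest of 3 equal classes of transcript length, -0.01 in the middle class and -0.19 in the longest. Members of the semaphorin system are long: 20 of the 28 belonged to the longest class, 8 to the middle one and 0 to the shortest. Isoforms of at least 5 kb held 30.3% of the members' FPKM in sham 2 and 36.1% to 40.7% in the other 5 libraries. The called members are therefore given with and without single libraries. The fit without sham 2 called 1180 of 12302 genes tested, against 464 of 12289 with all 6 libraries. An adjusted p from that fit is to be read beside this larger background.

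Levels spanned a wide range. Plxnc1, the receptor of Sema7a, had the highest mean over the 6 libraries at 51.1 FPKM, followed by Sema4f at 43.9 FPKM and Plxnd1, the receptor of Sema3e, at 41.4 FPKM. In sham the mean of Sema4f (34.6 FPKM) was below those of Plxnc1 (51.8 FPKM) and Plxnd1 (43.3 FPKM). In crush its mean was above both (53.3 against 50.5 and 39.6 FPKM), but it overlapped Plxnc1. Sema4f was above Plxnc1 in crush 3 (58.9 against 46.6 FPKM) and below it in crush 1 (51.3 against 52.8 FPKM) and crush 2 (49.7 against 52.1 FPKM). Next came Sema3b (25.9 FPKM), Plxna4 (23.3 FPKM) and Sema7a (23.0 FPKM), and the ranges of Plxnd1 and Sema3b did not overlap, while those of Sema4f and Sema7a did. Of the 29 pairs of neighbours in the order, 26 had overlapping ranges. Each range covers all 6 libraries, so it holds any difference between sham and crush as well as the spread within a group. The other 2 separated steps lay at the low end, between Sema6c (4.58 FPKM) and Plxnb1 (3.59 FPKM) and between Plxnb1 and Sema4g (1.93 FPKM). Sema5b and Sema3d were lowest, with means of 0.959 and 0.876 FPKM.

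**Figure D1:**
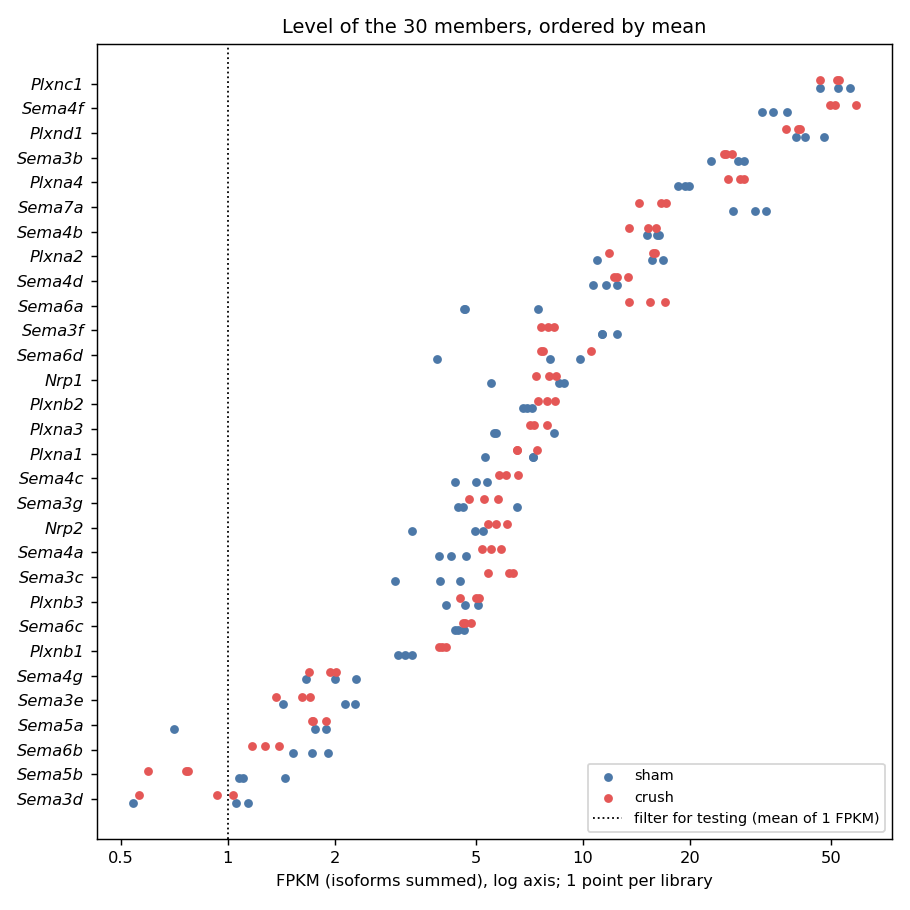
FPKM of each of the 30 members, 1 point per library on a log axis, ordered by mean, with sham in blue and crush in red; the dotted line marks the mean of 1 FPKM needed for a test. Plxnc1, Sema4f and Plxnd1 have the highest means, the colours separate clearly for Sema6a and Sema7a, and Sema5b and Sema3d lie around the line.

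Summed by role, transmembrane semaphorins had 95.0 ± 4.30 FPKM in sham (SD, n = 3) and 126.9 ± 6.13 FPKM in crush. Plexins had 156.7 ± 3.73 and 162.9 ± 7.77 FPKM, secreted semaphorins 49.8 ± 3.42 and 47.2 ± 0.979 FPKM, and neuropilins 12.1 ± 2.87 and 13.7 ± 0.760 FPKM. These sums are descriptions without a test. Without the 5 called members the remaining 25 summed to 242.5 ± 11.8 FPKM in sham and 246.8 ± 9.86 FPKM in crush. The 5 were left out by their call in this same comparison, so a small change of the rest follows in part from that choice.

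**Figure D2:**
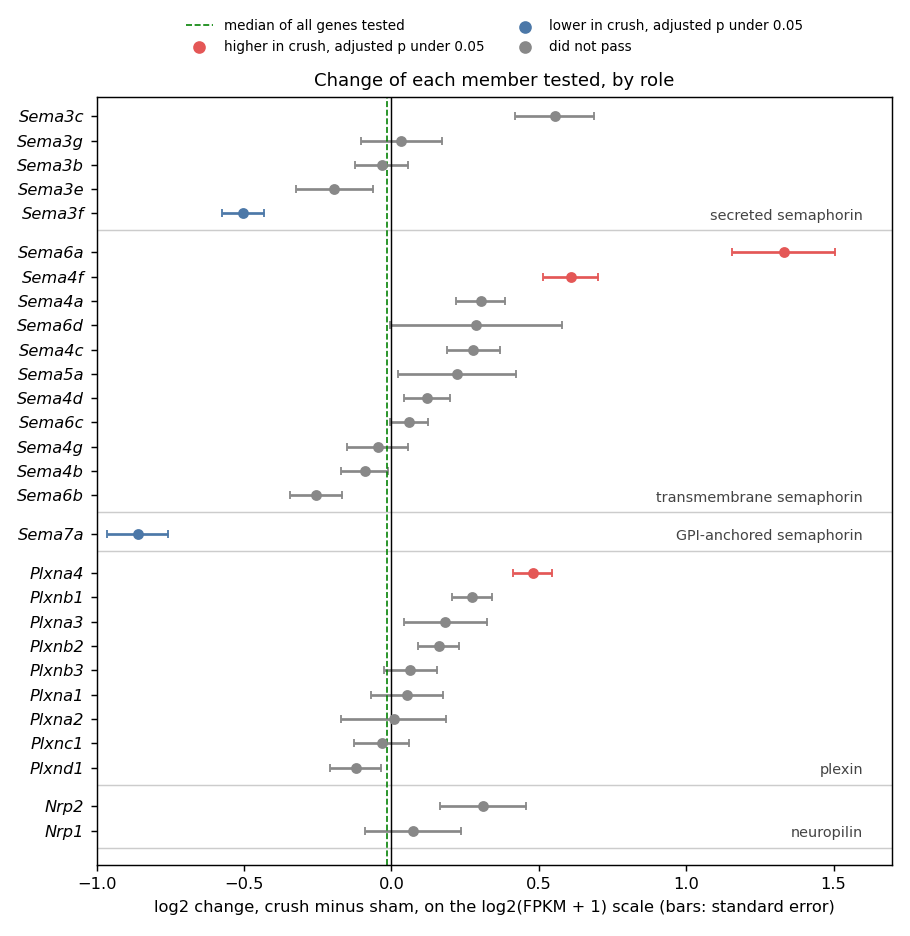
Log2 change, crush minus sham, of the 28 members tested, with standard errors as bars, grouped by role; red and blue points passed the test, grey ones did not, and the dashed line is the median of all genes. Each role except the neuropilins holds at least 1 called member, and the called members are at the ends of their groups.

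Among the secreted semaphorins, 0 of 5 tested rose and 1 fell (2.38% and 1.39% of all genes). Sema3f signals mainly through neuropilin-2 and repels sympathetic, hippocampal and other axons. Its level was 11.3, 11.3 and 12.5 FPKM in sham 1 to 3 and 7.95, 8.30 and 7.63 FPKM in crush 1 to 3. The groups did not overlap, and the values within each group were close. The mean fell from 11.7 ± 0.671 to 7.96 ± 0.332 FPKM (SD, n = 3), 1.47-fold lower, with a log2 change of -0.50 (SE 0.07, limma adjusted p = 0.0165). Leaving out sham 1, sham 3, crush 1, crush 2 or crush 3 ended the call (adjusted p = 0.0587, 0.0837, 0.0988, 0.0707 and 0.0806), while leaving out sham 2 kept it (0.00672). The fall was not seen in the reference isoforms alone, which hold 55.6% of the gene's FPKM: their log2 change was -0.04 (adjusted p = 0.974).

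Sema3f was spread over 9 isoforms, and the split between them differed from library to library. One of its 2 reference isoforms was at 3.22, 3.27 and 3.30 FPKM in sham and 1.84, 1.98 and 2.60 FPKM in crush, without overlap. The other was at 2.67, 4.64 and 0.0117 FPKM in sham and 3.00, 3.59 and 2.67 FPKM in crush. An assembled isoform took 5.88 FPKM in sham 3, the library where that reference isoform was near 0, and 1.5 and 1.07 FPKM in the other 2 sham libraries. In crush 1 to 3 this assembled isoform was at 1.49, 0.00103 and 0.0727 FPKM. Its mean was 2.82 FPKM in sham and 0.522 FPKM in crush, that is, 24.1% and 6.56% of the gene's FPKM. Much of the lower sum in crush thus lay in an isoform that varied widely between libraries. The quantification status of the gene was not OK for at least 1 isoform in crush 3, and over the libraries with status OK the log2 change was -0.48.

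Sema3c, which unlike most class 3 members can act as an attractant, was at 4.50, 2.95 and 3.96 FPKM in sham and 6.37, 6.21 and 5.40 FPKM in crush. All crush values lay above all sham values, with a log2 change of 0.55 (SE 0.13), but the adjusted p was 0.0809. It is the only isoform of its gene in the table, and sham 2 held its lowest value. Without sham 2 the log2 change was 0.42 and the adjusted p was 0.0316. In the authors' deposited table the same isoform had a log2 fold change of 0.49 and a q-value of 0.000407, although the deposited intervals overlapped between groups: the upper bound was 5.67 FPKM in sham 1 and the lower bounds in crush were 4.77, 4.62 and 4.00 FPKM.

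Sema3b was the most abundant secreted member, with 23.0, 28.5 and 27.3 FPKM in sham and 25.3, 25.0 and 26.4 FPKM in crush. The groups overlapped and the log2 change was -0.03 (SE 0.09, adjusted p = 0.897). It shares 12.8% of its exon bases with Ifrd2 on the opposite strand, which had a mean of 1.84 FPKM. Sema3g had group means of 5.18 ± 1.15 and 5.27 ± 0.492 FPKM. Sema3e, the ligand of Plxnd1, had 1.95 ± 0.458 FPKM in sham and 1.56 ± 0.177 FPKM in crush with overlapping groups (adjusted p = 0.518), whereas the authors' deposited table marks its isoform with a q-value of 0.00254 and a log2 fold change of -0.52. Sema3d ranged from 0.540 to 1.14 FPKM over the 6 libraries and was not tested. On the mm9 map Sema3b and Sema3f are neighbours on chromosome 9, 72.3 kb apart on the same strand (107493736 to 107511539 and 107583836 to 107612703), with log2 changes of -0.03 and -0.50.

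Among the transmembrane semaphorins, 2 of 11 tested rose and 0 fell (2.38% and 1.39% of all genes). Sema6a, a ligand of Plxna2 and Plxna4 that can also act as a receptor, had the largest change of all members. Its level was 7.49, 4.67 and 4.64 FPKM in sham and 15.5, 13.5 and 17.0 FPKM in crush. Every crush library was well above every sham library, with sham 1 the highest of the sham group. The mean rose from 5.60 ± 1.64 to 15.3 ± 1.75 FPKM (SD, n = 3), 2.74-fold, with a log2 change of 1.33 (SE 0.18, limma adjusted p = 0.0146). The call was lost without sham 3, crush 1, crush 2 or crush 3 (adjusted p = 0.0670, 0.0806, 0.0565 and 0.0686) and kept without sham 1 or sham 2 (0.0185 and 0.00846). The log2 change stayed between 1.23 and 1.53 in these fits.

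All 3 main isoforms of Sema6a had higher values in crush. An assembled isoform of 7 exons, which starts 88.4 kb downstream of the start of the gene, was at 2.68, 2.47 and 1.61 FPKM in sham and 5.92, 6.71 and 7.17 FPKM in crush. The reference isoform of 18 exons was at 1.76, 1.13 and 1.44 FPKM in sham and 5.51, 3.91 and 5.24 FPKM in crush, and that of 19 exons at 1.75, 0.555 and 0.848 against 3.47, 2.40 and 3.02 FPKM. In each of them the groups did not overlap, while the adjusted p over all isoforms was 0.0878, 0.0878 and 0.284. The short isoform made up 40.2% of the gene's FPKM in sham and 43.0% in crush. Over the reference isoforms alone the log2 change of the gene was 1.36 (adjusted p = 0.0625).

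Sema4f, a class 4 semaphorin that neurons make and that is known from synapses and from contacts between glia and axons, was the most abundant semaphorin. The 250 bases before its RefSeq start on the minus strand of GRCm38.p6, chr6:82939770-82940019, are shown because it is the most abundant member that changed. The capitals mark the letters of a CCAAT motif read on the opposite strand:

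Sema4f: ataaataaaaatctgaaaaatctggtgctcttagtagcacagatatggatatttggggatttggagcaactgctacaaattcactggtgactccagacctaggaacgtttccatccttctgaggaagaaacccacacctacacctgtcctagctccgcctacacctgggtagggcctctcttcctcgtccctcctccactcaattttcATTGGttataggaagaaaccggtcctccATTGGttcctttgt

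The motif CCAAT, searched on both strands, occurred 2 times there, beginning 42 and 14 bases before the start, and it occurs in 33.8% of all 32817 windows of this length. No match was found to the AP-1 motif TGANTCA, the cAMP response element TGACGTCA, the STAT motif TTCNNNGAA or the GC box GGGCGG, which 6.75%, 1.55%, 7.01% and 32.7% of all windows hold. These matches are descriptions of the letters only.

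The level of Sema4f was 34.2, 37.6 and 31.9 FPKM in sham and 51.3, 49.7 and 58.9 FPKM in crush. The groups did not overlap, and crush 3 was the highest library. The mean rose from 34.6 ± 2.84 to 53.3 ± 4.95 FPKM (SD, n = 3), 1.54-fold, with a log2 change of 0.61 (SE 0.09, limma adjusted p = 0.0222). Leaving out sham 1, sham 3, crush 1, crush 2 or crush 3 ended the call (adjusted p = 0.0798, 0.0995, 0.101, 0.0727 and 0.0806), and leaving out sham 2 kept it (0.00607). The status of at least 1 isoform was not OK in sham 3, and over the libraries with status OK the log2 change was 0.55. On mm9 the gene lies on the minus strand of chromosome 6, from 82860712 to 82889729.

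Its 6 isoforms shared the signal unevenly. The most abundant, an assembled form of 14 exons, was at 9.14, 14.3 and 10.5 FPKM in sham and 15.8, 17.2 and 21.2 FPKM in crush, without overlap. Its neighbour of 13 exons was at 6.46, 19.7 and 7.33 FPKM in sham and 8.0, 12.2 and 20.8 FPKM in crush, with sham 2 and crush 3 far above the rest. An assembled isoform of 15 exons was at 4.29, 2.48 and 11.3 FPKM in sham and 15.2, 13.1 and 11.3 FPKM in crush, with overlap. It held 17.4% of the gene's FPKM in sham and 24.7% in crush. A further isoform was at 10.4 FPKM in sham 1 and at 0 and 0.00579 FPKM in the other 2 sham libraries. The single reference isoform held 9.66% of the gene's FPKM and was at 3.79, 1.06 and 2.77 FPKM in sham and 8.41, 5.38 and 4.05 FPKM in crush. Taken alone it had a log2 change of 1.01 (adjusted p = 0.338).

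The other transmembrane members did not pass. Sema4a, known from T cells and the retina, was at 4.24, 3.94 and 4.69 FPKM in sham and 5.18, 5.51 and 5.88 FPKM in crush. Its groups did not overlap, with a log2 change of 0.30 (SE 0.08, adjusted p = 0.112). Sema4c, a ligand of Plxnb2, also had separated groups, with means of 4.91 ± 0.508 and 6.15 ± 0.397 FPKM (adjusted p = 0.168). Sema6b had separated groups in the opposite direction, with means of 1.72 ± 0.194 and 1.28 ± 0.110 FPKM (adjusted p = 0.192). Sema5b, below the level for a test, was at 1.44, 1.1 and 1.08 FPKM in sham and 0.773, 0.597 and 0.760 FPKM in crush, all crush values below all sham values. Sema5a, which like Sema5b carries thrombospondin repeats, had means of 1.45 ± 0.651 and 1.79 ± 0.0938 FPKM, and its lowest library was sham 2 at 0.703 FPKM.

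Sema6d had 7.25 ± 3.04 FPKM in sham and 8.63 ± 1.67 FPKM in crush, with overlap, and sham 2 at 3.89 FPKM was again the lowest library. Sema4b (15.9 ± 0.632 and 14.9 ± 1.32 FPKM), Sema4g (1.99 ± 0.321 and 1.88 ± 0.166 FPKM) and Sema6c (4.47 ± 0.129 and 4.70 ± 0.128 FPKM) overlapped between groups. Sema4d, the ligand of Plxnb1 and a semaphorin of T cells and oligodendrocytes, had 11.6 ± 0.907 FPKM in sham and 12.7 ± 0.606 FPKM in crush. Of its exon bases 34.5% are shared with Secisbp2 on the opposite strand, which had a mean of 1.2 FPKM, and no source used here says that the libraries keep strand. On the same strand, 11.1% of the exon bases of Sema4d are shared with the locus Gm15440, which had a mean of 4.53 FPKM.

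Sema7a, the only member held in the membrane by a GPI anchor, promotes axon growth through integrins and binds Plxnc1. Its promoter window, 250 bases before the RefSeq start on the plus strand of GRCm38.p6, chr9:57939862-57940111, is shown because Sema7a had the smallest adjusted p of the members. The capitals mark GC boxes:

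Sema7a: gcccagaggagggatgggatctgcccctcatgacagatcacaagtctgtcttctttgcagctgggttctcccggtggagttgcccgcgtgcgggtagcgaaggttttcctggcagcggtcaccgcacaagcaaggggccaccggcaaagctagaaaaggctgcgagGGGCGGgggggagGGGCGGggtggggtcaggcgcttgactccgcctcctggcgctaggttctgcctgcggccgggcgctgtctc

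The GC box GGGCGG occurred 2 times, beginning 84 and 71 bases before the start, and 32.7% of all windows hold it. TGANTCA, TGACGTCA, TTCNNNGAA and CCAAT had no match in this window.

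Sema7a was at 30.5, 26.6 and 32.7 FPKM in sham and at 17.1, 14.3 and 16.6 FPKM in crush. The lowest sham library was far above the highest crush library. The mean fell from 29.9 ± 3.11 to 16.0 ± 1.46 FPKM (SD, n = 3), 1.87-fold lower, with a log2 change of -0.86 (SE 0.10, limma adjusted p = 0.0111). Leaving out sham 3, crush 1, crush 2 or crush 3 moved the adjusted p to 0.0554, 0.0625, 0.0507 and 0.0529, while it stayed under 0.05 without sham 1 (0.0467) or sham 2 (0.00264). On mm9 the gene lies on the plus strand of chromosome 9, from 57787465 to 57810675.

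One assembled isoform of 14 exons held 81.1% of the Sema7a level in sham and 82.1% in crush. It was at 24.1, 22.9 and 25.9 FPKM in sham and 14.7, 11.6 and 13.1 FPKM in crush, with a log2 change of -0.84 (adjusted p over all isoforms = 0.0878). The reference isoform was at 6.22, 2.67 and 4.43 FPKM in sham and 2.44, 1.98 and 2.89 FPKM in crush, with overlap, and alone it had a log2 change of -0.62 (adjusted p = 0.414 over all genes). In the authors' deposited table both were marked significant, with log2 fold changes of -0.86 (q-value listed as 0) and -1.17 (q-value 6.61e-08). Sema7a was the 1 called member that the authors' deposited table tested: the isoforms of Sema6a, Sema4f, Plxna4 and Sema3f have no test there.

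**Figure D3:**
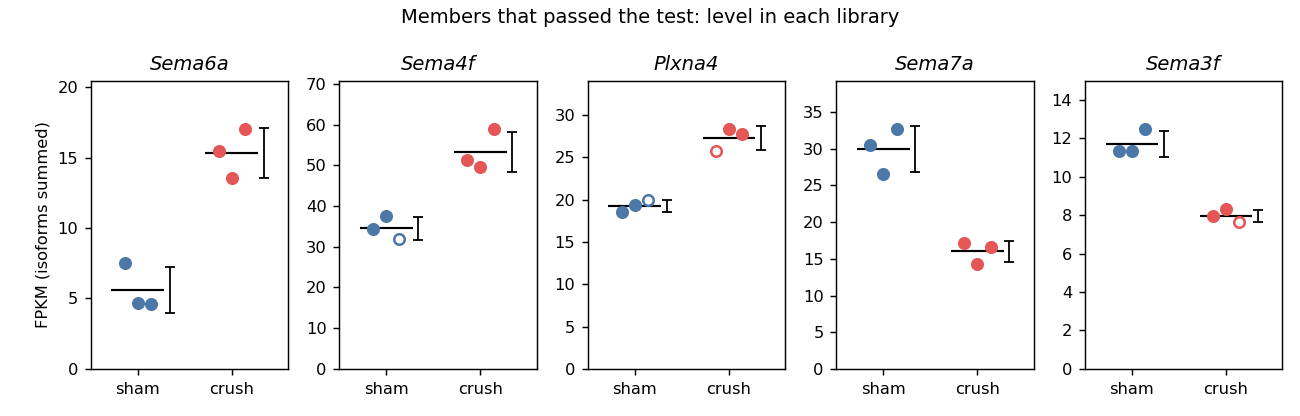
FPKM of the 5 called members in each library, with the mean as a line and the SD (n = 3) as a bar; open points are libraries in which an isoform of the gene had a status other than OK. In every panel the 3 crush points lie on 1 side of the 3 sham points, from 2.74-fold higher for Sema6a to 1.87-fold lower for Sema7a.

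Among the plexins, 1 of 9 tested rose and 0 fell (2.38% and 1.39% of all genes). Plxna4 is a signalling receptor for class 3 semaphorins together with neuropilins and a direct receptor for class 6 semaphorins, and it is known from the guidance of sensory axons. It was at 18.5, 19.4 and 19.9 FPKM in sham and 25.7, 28.3 and 27.8 FPKM in crush. The groups did not overlap, and the sham values lay close together. The mean rose from 19.3 ± 0.694 to 27.3 ± 1.39 FPKM (SD, n = 3), 1.41-fold, with a log2 change of 0.48 (SE 0.07, limma adjusted p = 0.0165). Leaving out sham 1, sham 3, crush 1, crush 2 or crush 3 ended the call (adjusted p = 0.0691, 0.0763, 0.0723, 0.0842 and 0.0836), and leaving out sham 2 kept it (0.00726). The status of at least 1 isoform was not OK in sham 3 and crush 1, and the log2 change over the other libraries was 0.54.

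Most of the Plxna4 level came from the 3′ end of the gene, which spans 32093875 to 32538012 on the minus strand of mm9 chromosome 6. An assembled isoform of 9 exons and 7394 bases starts 409.1 kb downstream of the start of the full-length reference isoform of 32 exons and 13090 bases. The short isoform was at 14.0, 17.2 and 15.2 FPKM in sham and 14.8, 21.9 and 23.1 FPKM in crush, and held 80.3% and 73.1% of the gene's FPKM. A second isoform of 9 exons was at 0.0906 to 0.164 FPKM in sham and at 4.44, 0.781 and 0.727 FPKM in crush, its highest value being in crush 1, where the short isoform was lowest of the crush group. The full-length isoform was at 4.40, 2.04 and 4.58 FPKM in sham and 6.47, 5.66 and 3.98 FPKM in crush, with overlap. The full-length form alone gave a log2 change of 0.48 with an adjusted p of 0.606.

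**Figure D4:**
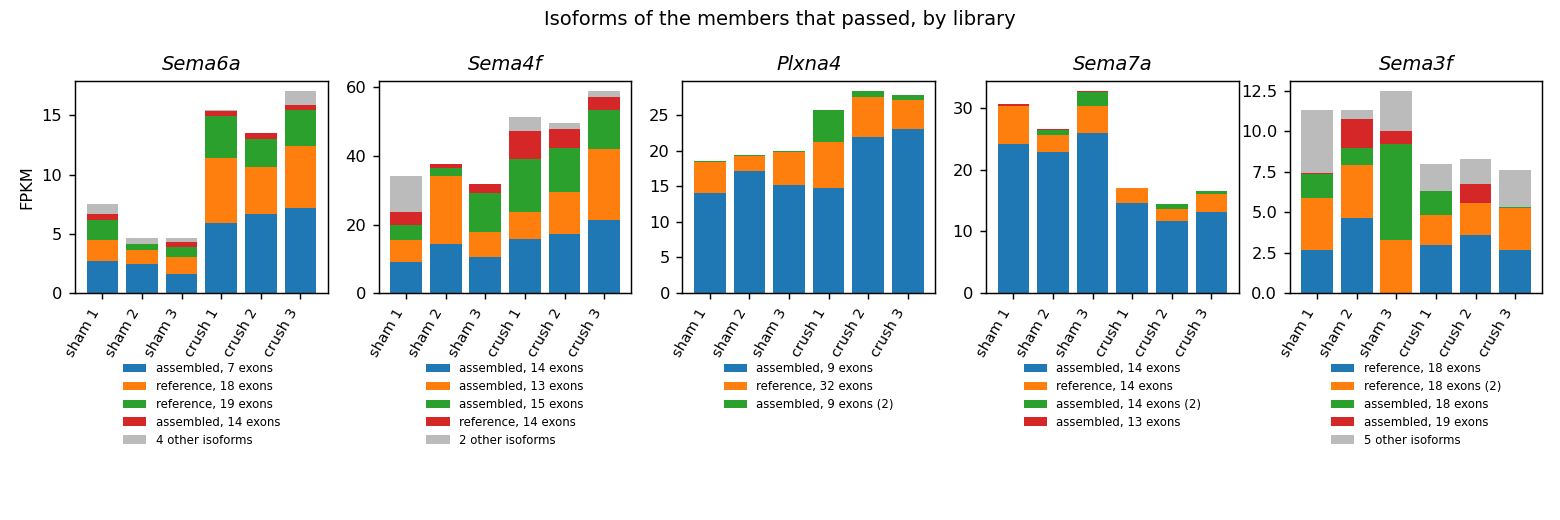
FPKM of the isoforms of the 5 called members, stacked per library, with the 4 most abundant isoforms of each gene in colour and the others in grey. In Sema6a and in Sema7a the same isoform is the largest part in every library, though its share varies. In Sema4f and Sema3f the largest part changes from library to library at a steadier total.

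Plxnc1, the most abundant plexin, was at 56.6, 46.4 and 52.4 FPKM in sham and 52.8, 52.1 and 46.6 FPKM in crush. The groups overlapped, with a log2 change of -0.03 (SE 0.09, adjusted p = 0.899), while its ligand Sema7a fell. Plxnd1 had 43.3 ± 4.2 FPKM in sham and 39.6 ± 1.89 FPKM in crush, also with overlap (adjusted p = 0.538). Plxna2, a receptor of Sema6a, had 14.5 ± 3.09 and 14.5 ± 2.31 FPKM. Plxna1 had 6.59 ± 1.12 and 6.82 ± 0.524 FPKM.

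The class B plexins, receptors of class 4 semaphorins, did not pass in any of 3 cases. Crush values without overlap above sham values were found in 2 of the 3 (12.2% of all genes). Plxnb1 had 3.15 ± 0.139 FPKM in sham and 4.02 ± 0.0886 FPKM in crush (log2 change 0.27, adjusted p = 0.0845; 0.0369 without sham 2). Plxnb2 had 6.97 ± 0.219 and 7.91 ± 0.421 FPKM (log2 change 0.16, adjusted p = 0.290). Plxnb3 overlapped, with 4.61 ± 0.484 and 4.86 ± 0.310 FPKM. Both share exon bases with a more abundant gene: Plxnb2 10.0% with Fam116b on the same strand (11.6 FPKM) and Plxnb3 6.63% with Idh3g on the opposite strand (61.0 FPKM). Plxna3 had 6.53 ± 1.53 FPKM in sham and 7.44 ± 0.441 FPKM in crush, and sham 2 at 8.29 FPKM was the highest of its 6 libraries. Without that library its log2 change was 0.34 in place of 0.18, and the adjusted p was 0.0254 in place of 0.576. The fit without sham 2 called 1180 of 12302 genes in all.

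Of the neuropilins, the ligand-binding co-receptors of class 3 semaphorins that also bind vascular endothelial growth factors, 0 of 2 were called by limma and 0 had an unadjusted p under 0.05. Nrp1 was at 8.56, 5.51 and 8.83 FPKM in sham and 8.42, 8.03 and 7.36 FPKM in crush. Its groups overlapped, with a log2 change of 0.07 (SE 0.16, adjusted p = 0.869). Nrp2, the partner of Sema3f, was at 5.22, 3.31 and 4.95 FPKM in sham and 6.10, 5.39 and 5.71 FPKM in crush. All crush values lay above all sham values, with a log2 change of 0.31 (SE 0.15, adjusted p = 0.335). Sham 2 was the lowest library for both.

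At the level of isoforms, 64 of the 163 isoforms of the members had a mean of at least 1 FPKM, and 0 of them were called by limma, with 12 at an unadjusted p under 0.05. The background was also low, with 0.0613% of 24485 isoforms called. Unequal change of the isoforms of a gene was tested with limma's diffSplice in 20 members and called in 0, with 1 at an unadjusted p under 0.05 (0.519% of 6746 genes were called). Of the members' isoforms, 128 had been assembled from the reads and carry no reference identifier. In the authors' deposited table, 27 isoforms from 9 members had been tested and 7 marked significant, against 15.1% of all isoforms tested there, and 135 had the test status FAIL.

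Other genes of semaphorin signalling were taken from lists of co-receptors, cytoplasmic partners and further ligands. Of 63 tested, 7 rose, 1 fell and 55 did not pass (12.7% called, against 3.78% of all genes). The lists were chosen with earlier results of these data known, so these shares are set side by side as a description only. Among the 14 co-receptors tested 3 rose, with a median log2 change of 0.12. Chl1, an adhesion molecule of the L1 family that binds neuropilin-1, was at 17.9, 13.4 and 16.3 FPKM in sham and 38.7, 34.5 and 42.0 FPKM in crush, without overlap (log2 change 1.23, SE 0.12, limma adjusted p = 0.00717). It kept an adjusted p under 0.05 without any single library (0.00226 to 0.0487). Tyrobp, a signalling adaptor of myeloid cells, had 3.56 ± 0.257 FPKM in sham and 7.06 ± 0.424 FPKM in crush, and its partner receptor Trem2 had 1.12 ± 0.353 and 2.49 ± 0.326 FPKM (log2 change 0.82 and 0.73, limma adjusted p = 0.00717 and 0.0393). Tyrobp kept its call without any single library (adjusted p = 0.00229 to 0.0459), and Trem2 lost its call with quantile normalization (0.0584). Both are genes of macrophages, whose markers rose as given above, and the part of those cells was not tested. The most abundant co-receptors were the tetraspanin Cd9 (549.5 ± 65.1 and 514.4 ± 28.3 FPKM) and the adhesion molecule L1cam (131.8 ± 18.7 and 146.5 ± 6.12 FPKM), neither of them called.

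Of the 41 cytoplasmic partners tested, 4 rose and 1 fell (2.38% and 1.39% of all genes), with a median log2 change of 0.09. The small GTPase Rras2 was at 4.88, 4.79 and 4.77 FPKM in sham and 9.47, 8.13 and 10.9 FPKM in crush (log2 change 0.84, SE 0.10, limma adjusted p = 0.0123). Its groups did not overlap.

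The collapsin response mediator Crmp1, which relays class 3 semaphorin signals to the cytoskeleton, had 74.8 ± 3.81 FPKM in sham and 97.9 ± 2.72 FPKM in crush (log2 change 0.39, limma adjusted p = 0.0333). Micall1, a relative of the plexin-binding Mical enzymes, had 8.42 ± 0.189 and 12.1 ± 0.512 FPKM (log2 change 0.47, limma adjusted p = 0.0148), and 57.6% of its exon bases are shared with the locus 1700088E04Rik on the opposite strand. Limk1, the kinase that phosphorylates cofilin, fell from 97.0 ± 5.24 to 76.2 ± 0.323 FPKM (log2 change -0.34, limma adjusted p = 0.0434), and it was not called without a filter on low values (0.0504) or with quantile normalization (0.0603). The most abundant partners, cofilin itself (Cfl1, 459.3 ± 80.8 and 464.7 ± 50.1 FPKM) and Rac1 (155.1 ± 11.8 and 169.3 ± 7.16 FPKM), were not called.

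Leaving out sham 3 or crush 1 ended the call of Rras2 (adjusted p = 0.0653 and 0.0736), and Trem2, Crmp1, Micall1 and Limk1 lost theirs without any 1 library other than sham 2 (0.0569 to 0.201). In the reference isoforms alone Rras2 had a log2 change of 0.23 (adjusted p = 0.586). Of the 8 further ligands tested 0 were called by limma, with a median log2 change of -0.13. An unadjusted p under 0.05 was found in 6 of them, some lower and some higher in crush. The most abundant of the further ligands were the matrix proteoglycan Bcan (37.5 ± 2.0 and 29.6 ± 1.26 FPKM, adjusted p = 0.0533) and the growth factor Vegfb (36.7 ± 3.41 and 30.3 ± 1.21 FPKM, adjusted p = 0.153).

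**Figure D5:**
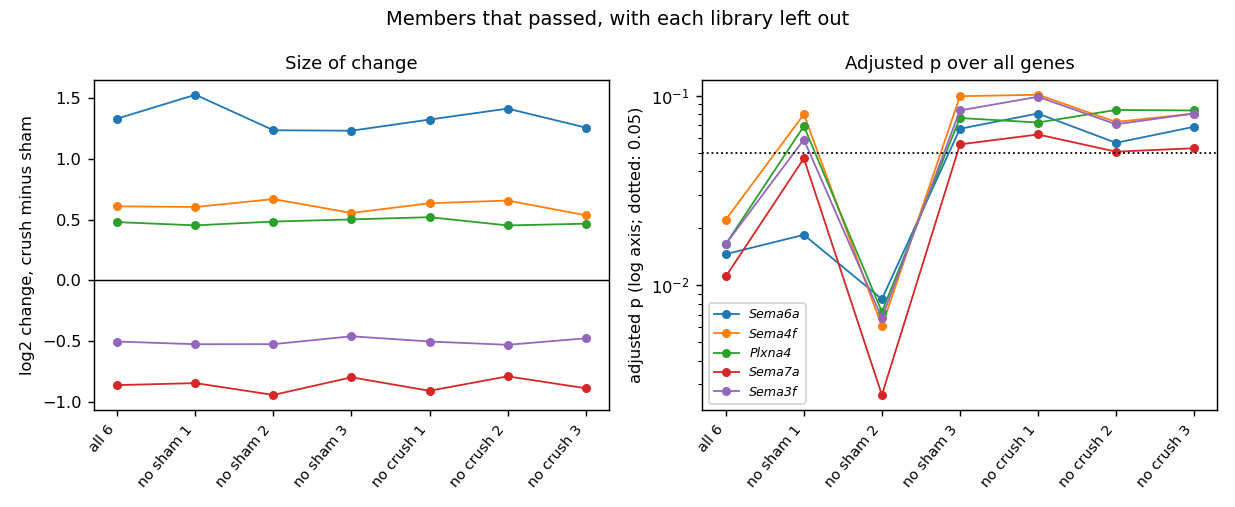
Log2 change (left) and adjusted p over all genes on a log axis (right) of the 5 called members, with all 6 libraries and with each library left out. The changes keep their direction and nearly their size, while the adjusted p is lowest without sham 2 and over the dotted line at 0.05 for all 5 without sham 3 or any crush library.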

How the data were processed

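Poly-A RNA-seq of laser-microdissected ganglion neurons was analysed in 3 sham and 3 crush libraries, grouped by the labels. FPKM per isoform and library, with an interval and a status, were given in the authors' deposited table, which also holds the authors' p-value, q-value and log2 fold change per isoform. Build mm9 and the programs TopHat (1.3.2), Cufflinks (1.1.0) and Cuffdiff (1.2.1) are named, per the submitters' processing notes. Positions, exon counts and lengths came from the authors' exon file. FPKM was summed per gene name after removal of the isoform suffix, and 0 value columns were left unmapped. The depth was unknown, and low FPKM values showed no steps of whole reads.

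limma 3.58.1 (R 4.3.3, lmFit, eBayes with a trend, 2-sided) was fitted to log2(FPKM + 1) of all genes, and separately of all isoforms, whose mean reached 1 FPKM. Benjamini-Hochberg adjustment ran over each whole table, and calls needed an adjusted p under 0.05. Counts at an unadjusted p under 0.05 are given without the share of all genes at that threshold and are descriptions. Isoform differences used diffSplice. The scripts were tested on simulated data. For simulated isoforms of unequal spread diffSplice gave more false calls than its threshold allows, so its calls over all genes may be too many. Alternatives covered the pseudocount, the filter, scaling, sample weights, isoform choice, a replicate block and each library left out. All members are named; values per library are given for called members, for the most abundant of each role and for separated members with an absolute log2 change of at least 0.3, and list genes are named where called or among the 2 most abundant, some with group means only. Of the called list genes, 1 is counted but not reported here by name. Members and lists were chosen with earlier results of these data known. Some isoforms and the values of Sema3c, Sema7a and Sema3e from the authors' table were picked after their values were seen.

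Promoter windows are from RefSeq (GRCm38.p6), in which 25 member genes had an entry, and no coordinate was carried between builds.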

Additional observations from a re-analysis of the deposited data

How the results depend on the processing

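The 5 members stayed called with a pseudocount of 0.1 or 5, without a filter, with a minimum mean of 5 FPKM, with upper-quartile or quantile scaling and without the mean-variance trend, and no called member changed direction in any fit. The count of members called was 8 with array quality weights, 0 with only reference isoforms (23 tested) and 0 to 8 with each library left out. With only isoforms of status OK in all libraries it was 2 (Sema6a and Sema7a). Plxna4, Sema4f and Sema3f were not among the 25 members tested in that fit. Of the 23 members not called, 11 changed sign under at least 1 alternative and 3 (Plxna3, Plxnb1 and Sema3c) were called under at least 1. Genes called over the whole table numbered 464, against 295 with a minimum mean of 5 FPKM, 1429 with array weights, 67 with reference isoforms only and 53 to 1180 with each library left out. Pathway genes called numbered 8, against 17, 1 and 2 to 15 in the last 3 of these. Member isoforms called were 0, against 9 with array weights, and members with isoform differences 0, against 1 without a filter. With the replicate block, 50 genes, 1 member (Sema7a, adjusted p = 0.0434) and 1 pathway gene (Chl1) were called. The labels do not say what the replicate number shares, and same-numbered libraries correlated at 0.37, -0.31 and -0.49 in their deviations from the group means, so the numbers were not taken as pairs. A fit without 1 library leaves 2 in its group, which lowers the power by construction, and the cause of the other shifts was not tested. The fit over libraries with status OK was chosen after seeing the data. The unknown depth limits what can be said of members near 1 FPKM.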
